A study of Mus musculus with 87 samples.

Results

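Dlk1, Meg3, Rtl1, Rian and Mirg are 5 genes of 1 imprinted cluster on mouse chromosome 12, and their RNA was followed in embryonic stem (ES) cells that lacked subunits of Polycomb repressive complex 2 (PRC2). They were chosen by name, as genes of this locus, with earlier results of these data known. They were found by their Ensembl IDs among the 55450 IDs of the RNA count files (ENSMUSG00000040856 for Dlk1, ENSMUSG00000021268 for Meg3, ENSMUSG00000085925 for Rtl1, ENSMUSG00000097451 for Rian and ENSMUSG00000097391 for Mirg). All 5 had counts, and all 5 passed the filter that left 14650 IDs for testing. RNA came from Pcl1-3 + Jarid2 + Aebp2 + Epop KO cells (called the combined accessory knockout below), from knockouts that lacked fewer accessory subunits (Pcl1-3 + Jarid2 + Aebp2 KO, Pcl1-3 + Jarid2 KO, Jarid2 + Aebp2 KO, Pcl1-3 + Epop KO and Pcl1-3 KO), from Suz12 KO cells and from wild-type (WT) cells, with 3 libraries of each. Pcl1-3 KO stands for loss of the 3 Polycomb-like genes together. All were grown on gelatin in 2i medium, which holds ES cells in a naive state with kinase inhibitors. Total counts per library ran from 10148155 to 28442061. The labelled strain differs for each genotype (129B6F1 for WT, 129B6F2 for Suz12 KO and so on to 129B6F8), so strain as labelled and genotype cannot be told apart. Whether replicate libraries are separate cultures or clones is not stated in the labels, and the spread that each p-value rests on may therefore be technical only. The cells' identity and the loss of each targeted gene were not checked, because the sources used here pair no other Ensembl ID with a gene symbol.

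Imprinted genes are transcribed mainly from the copy inherited from 1 parent. In this cluster the protein-coding genes Dlk1 and Rtl1 are known as paternally expressed, while the long noncoding RNAs Meg3, Rian and Mirg, which run in the same direction and host many small RNAs, are known as maternally expressed. The parental difference is set by DNA methylation of an intergenic control region between Dlk1 and Meg3, and the maternal RNAs are known to be silenced in some cultured pluripotent lines. PRC2 methylates histone H3 at lysine 27 and is known for keeping developmental genes silent. SUZ12 belongs to its core, and the PCL proteins, EPOP, JARID2 and AEBP2 are accessory subunits. The counts do not separate the parental copies.

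The starts of Dlk1 and Meg3 are shown because, among the 5 genes, a deposited peak of any PRC2 protein lay at Dlk1 only, while RNA of both genes differed between genotypes. Each sequence is the 250 bases before an annotated start, from RefSeq on the build GRCm38.p6, plus strand, with CG dinucleotides in capitals. The Dlk1 window is chr12:109452573-109452822 and the Meg3 window is chr12:109540746-109540995. The annotated span of Dlk1 begins at chr12:109452485, so its window lies inside the gene, before an inner annotated start.
Dlk1 promoter: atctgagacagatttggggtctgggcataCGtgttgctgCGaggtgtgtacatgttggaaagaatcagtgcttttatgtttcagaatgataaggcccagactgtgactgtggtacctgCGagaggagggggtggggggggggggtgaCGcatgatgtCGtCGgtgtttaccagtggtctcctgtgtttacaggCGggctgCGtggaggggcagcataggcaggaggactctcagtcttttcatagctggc
Meg3 promoter: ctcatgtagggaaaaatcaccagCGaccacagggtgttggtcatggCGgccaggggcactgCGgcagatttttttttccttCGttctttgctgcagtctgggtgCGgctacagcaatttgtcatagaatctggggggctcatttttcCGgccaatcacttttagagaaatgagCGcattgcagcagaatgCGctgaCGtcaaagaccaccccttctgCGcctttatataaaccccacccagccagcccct

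The Dlk1 window held 8 CG dinucleotides, a sequence that reads alike on both strands, and 54.8% G and C. At least that many CG were found in 43.0% of 32851 mouse promoter windows of the same length. The Meg3 window held 10, a number reached by 37.8% of the windows, and 52.4% G and C. A second annotated Meg3 start lies further into the gene, and its window (chr12:109545148-109545397) held 0. The Dlk1 window overlapped a deposited peak of SUZ12, of JARID2 and of PCL2, while neither Meg3 window overlapped any. Of the 12417 windows with at least 10 CG, 28.0% overlapped a SUZ12 peak, 13.8% a JARID2 peak and 46.2% a PCL2 peak. The Rian window held 0 CG and the Mirg window 10, and neither overlapped a peak. No window for Rtl1 was used here.

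The 3 peak lists of the series give positions on mm10 without scores or replicates, and they show where these proteins were found along the cluster. Dlk1, the only member with a peak within 1 kb, encodes a transmembrane protein of the Notch ligand family, and spans chr12:109452485-109463336. It held 2 peaks of each protein. The SUZ12 peaks were chr12:109452669-109455182, near the start of the gene, and chr12:109458768-109461030, towards its end, and together they covered 44.0% of the gene. The JARID2 peaks, chr12:109452449-109454179 and chr12:109459600-109460314, covered 22.2%. The PCL2 peaks, chr12:109452559-109454908 and chr12:109458695-109461129, covered 44.1%. The peak near the start overlapped between all 3 lists, and so did the peak towards the end. Across all 49943 annotated genes, 14.2% had a SUZ12 peak within 1 kb, 8.52% a JARID2 peak and 25.4% a PCL2 peak. The 1 of 5 was the same when peaks had to lie over the gene itself, when 5 kb was allowed, and when only peaks at least 1 kb wide were used.

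The other members lay in a stretch without peaks. Meg3 (chr12:109540996-109571729) began 80.0 kb from the nearest SUZ12 peak, and the nearest JARID2 and PCL2 peaks were 80.7 and 79.9 kb away. Rtl1 (chr12:109564900-109604418), a gene derived from a retrotransposon and needed in the placenta, was 104 kb from the nearest SUZ12 peak. Rian (chr12:109603945-109661716), host of small nucleolar RNAs, was 143 kb from it, and Mirg (chr12:109734981-109749458), host of microRNAs, 274 kb. The SUZ12-free stretch, chr12:109461031-110186668, was 726 kb long, and 11.6% of the 7772 gaps between neighbouring SUZ12 peaks were at least as long. The JARID2-free stretch was 727 kb (20.1% of 4968 gaps were as long) and the PCL2-free stretch 527 kb (5.21% of 19977). These shares count gaps and not bases, so they do not give the share of the genome that lies in stretches this long. Meg3, Rian and Mirg were 3 noncoding genes with no peak within 1 kb, against a share of 12.2% with a SUZ12 peak among the 4135 noncoding genes at least as long as Mirg. On either side, Begain held 3 SUZ12, 2 JARID2 and 4 PCL2 peaks, and Dio3, the imprinted thyroid hormone deiodinase gene at the far end, was covered whole by 1 peak of each.

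**Figure D1:**
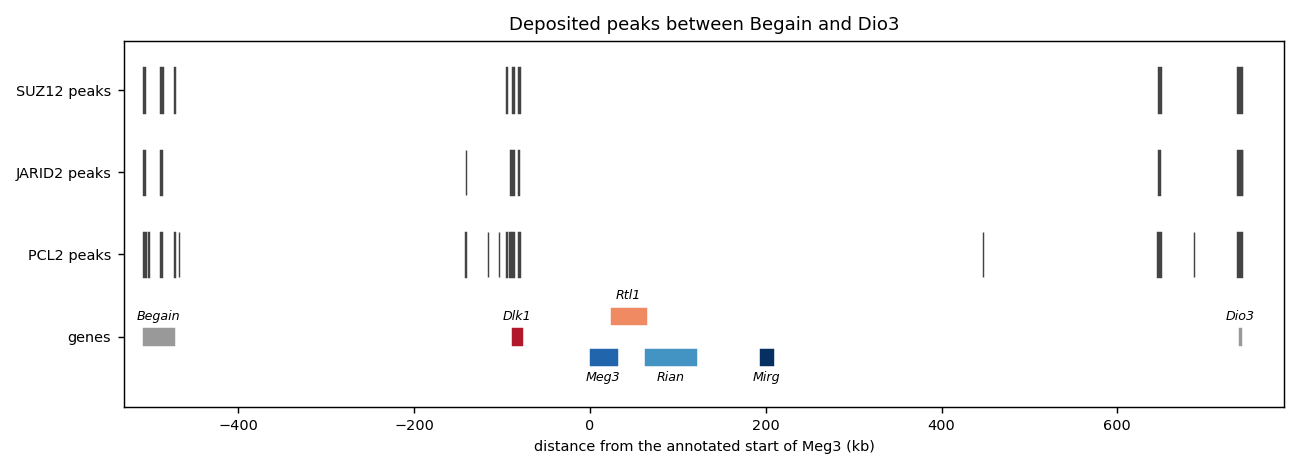
Deposited SUZ12, JARID2 and PCL2 peaks (dark bars) and gene spans (coloured bars for the 5 members, grey for Begain and Dio3) by distance in kb from the annotated start of Meg3. Peaks stand at Begain, at and before Dlk1, and far beyond Mirg up to Dio3, and none lies over Meg3, Rtl1, Rian or Mirg.

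Levels are given below as CPM, read counts relative to library size after TMM scaling (edgeR's trimmed mean scaling). A log2 fold change passed the threshold when its p in edgeR's quasi-likelihood test, adjusted by Benjamini-Hochberg over all 14650 IDs, was under 0.05. Shares of all tested IDs refer to this threshold only. For counts of members by unadjusted p or by DESeq2, no such share is given. CPM are not divided by gene length, so levels are compared between genotypes and not between genes. The reported tests do not model the replicate number. Fitting it as a block added calls in some comparisons, which are given in the closing section. In bulk samples, fewer cells with an RNA and less of it per cell cannot be told apart. The kit does not mark strand. The annotated spans of Rtl1 and Meg3 share 6830 bp and those of Rtl1 and Rian 474 bp, and an antisense RNA of Rtl1 is known, so reads counted for Rtl1 cannot be told apart from reads of overlapping RNAs.

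Every member was higher in cells that lacked all these accessory subunits than in WT. Dlk1 had 1.80, 4.97 and 5.26 CPM in the combined accessory knockout, against 0.390, 0.198 and 0.364 CPM in WT. Behind the values for WT stood 4, 2 and 5 reads, and behind those for the knockout 20, 63 and 63. The lowest knockout library was thus several times above the highest WT library. Meg3 had 28.5, 44.4 and 50.3 CPM in the combined accessory knockout and 17.9, 17.7 and 18.9 CPM in WT, so that the knockout libraries were all higher and spread further apart. Rian had 210, 245 and 208 CPM in the knockout, against 148, 146 and 112 CPM in WT. Mirg had 8.71, 16.4 and 26.4 CPM in the knockout, against 6.62, 6.74 and 4.37 CPM in WT. Rtl1 had 1.62, 1.89 and 3.25 CPM in the knockout, against 0.877, 0.694 and 0.801 CPM in WT, from at most 39 reads in any of these libraries. No knockout library of any member overlapped the WT libraries. Non-overlap, here and below, only describes the members, because its share over all tested IDs was not counted. Within the knockout, replicate 1 was the lowest library for 4 of the 5 genes, the exception being Rian, whose lowest was replicate 3.

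The edgeR test called 5 of 5 members higher in the combined accessory knockout than in WT, where 17.1% of all tested IDs were called higher. Such counts, here and below, are not of independent genes, since Meg3, Rian and Mirg varied together across libraries. The log2 fold change of Dlk1 was 3.61 (SE 0.72, edgeR adjusted p = 0.000595). That of Meg3 was 1.18 (SE 0.21, edgeR adjusted p = 0.000185), and that of Rian was 0.71 (SE 0.12, edgeR adjusted p = 0.000163). Mirg rose by 1.55 (SE 0.33, edgeR adjusted p = 0.00114) and Rtl1 by 1.50 (SE 0.50, edgeR adjusted p = 0.0260) on the log2 scale. The median over the members was 1.50, against 0.00 over all tested IDs. Of these calls, that of Rtl1 depended on single libraries: its edgeR adjusted p was 0.143 without combined accessory knockout replicate 3, and 0.0570, 0.0750 and 0.0694 without WT replicates 1, 2 and 3, and its adjusted p ranged from 0.0108 to 0.143 over all alternatives, DESeq2 included.

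**Figure D2:**
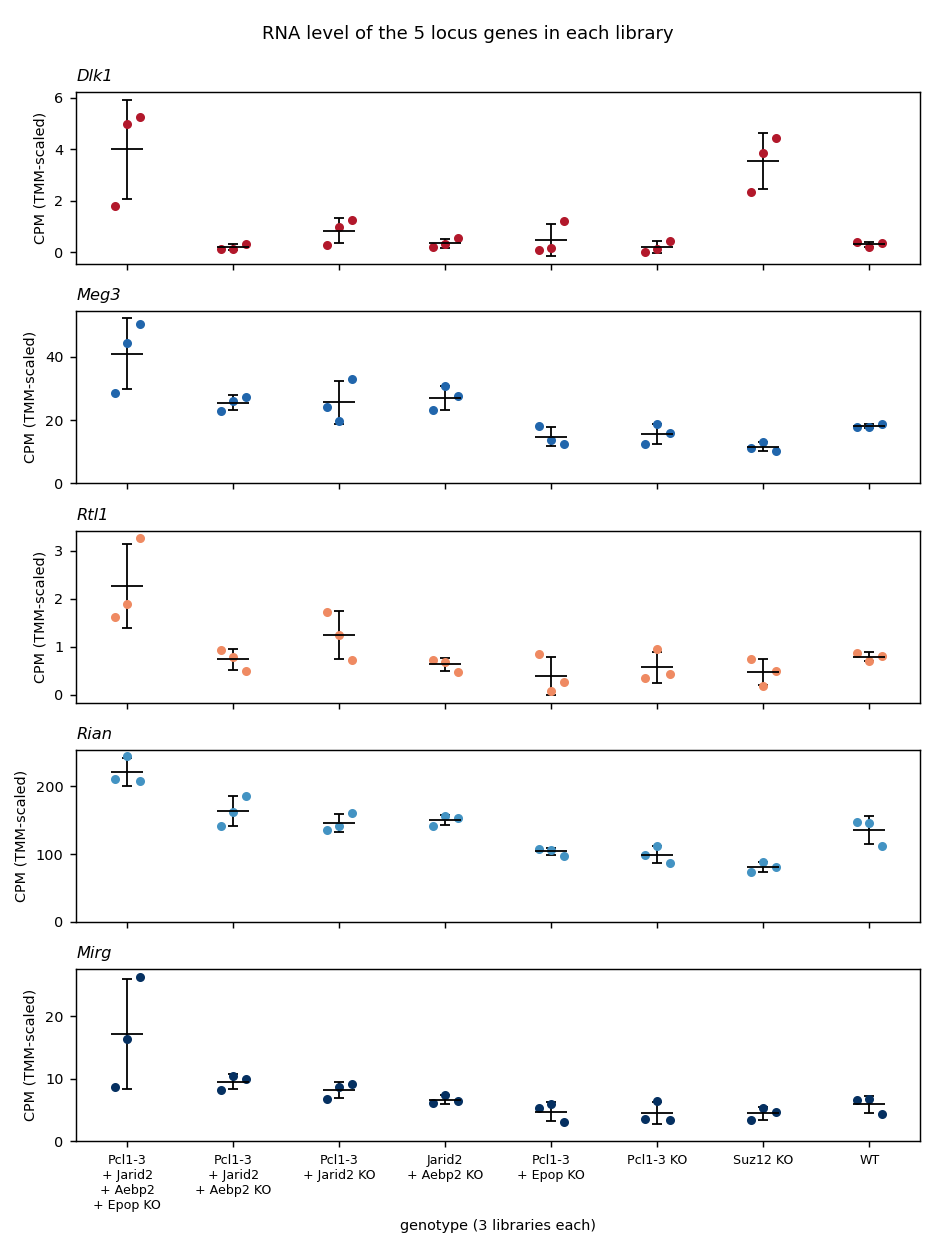
TMM-scaled CPM (linear axes, one panel per gene) in each of the 24 libraries by genotype; points are libraries, the long bar is the mean and the whiskers are ± 1 SD (n = 3). Dlk1 is high in the combined accessory knockout (1.80 to 5.26) and in Suz12 KO (2.34 to 4.45), while Meg3, Rian and Mirg have their highest means in the combined accessory knockout and their lowest in Suz12 KO.

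In cells without the core subunit SUZ12, Dlk1 rose, Meg3 and Rian fell, and Rtl1 and Mirg did not pass the threshold. Dlk1 had 2.34, 3.84 and 4.45 CPM in Suz12 KO, from 35, 64 and 72 reads, against 0.390, 0.198 and 0.364 CPM in WT. The noncoding Meg3 had 11.3, 13.1 and 10.4 CPM in Suz12 KO and 17.9, 17.7 and 18.9 CPM in WT. Rian had 73.7, 88.2 and 80.8 CPM in Suz12 KO and 148, 146 and 112 CPM in WT. For these 3 genes the groups did not overlap. Mirg had 3.34, 5.34 and 4.76 CPM in Suz12 KO, against 6.62, 6.74 and 4.37 CPM in WT, and Rtl1 had 0.735, 0.180 and 0.494 CPM in Suz12 KO, against 0.877, 0.694 and 0.801 CPM in WT. In both of the last genes the libraries of the genotypes overlapped.

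In Suz12 KO the edgeR test called 1 of 5 members higher, beside 20.7% of all tested IDs, and 2 of 5 lower, beside 18.3%. With 39.1% of IDs called in either direction, the count of 3 in 5 is to be read against that background. Dlk1 had a log2 fold change of 3.43 (SE 0.72, edgeR adjusted p = 0.000693). Meg3 fell by 0.65 (SE 0.21, edgeR adjusted p = 0.0188) and Rian fell by 0.74 (SE 0.12, edgeR adjusted p = 7.97e-05) on the log2 scale. The values were -0.39 for Mirg (edgeR adjusted p = 0.385) and -0.76 for Rtl1 (edgeR adjusted p = 0.313). The call for Meg3 was lost with scaling by library size only (edgeR adjusted p = 0.0601), where the median of all IDs was 0.11 on the log2 scale, and without Suz12 KO replicate 1 (0.0503), Suz12 KO replicate 3 (0.0746) or WT replicate 3 (0.0548), in a range of adjusted p from 0.00407 to 0.0746 over all alternatives, DESeq2 included.

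In the direct comparison of the knockouts, Dlk1 was the only member not past the threshold. Whether its change differed from those of the other members was not tested. Dlk1 averaged 4.01 ± 1.92 CPM in the combined accessory knockout and 3.54 ± 1.09 CPM in Suz12 KO (SD, n = 3 each), and the libraries overlapped. Its log2 fold change of 0.18 (SE 0.53) was not past the threshold (edgeR adjusted p = 0.815), which does not show that the levels are alike. Meg3 averaged 41.1 ± 11.3 CPM in the combined accessory knockout and 11.6 ± 1.38 CPM in Suz12 KO (SD, n = 3 each). Rian averaged 221 ± 20.9 CPM in the combined accessory knockout and 80.9 ± 7.29 CPM in Suz12 KO. For both noncoding RNAs, every library of the combined accessory knockout was above every Suz12 KO library. The same was true of Mirg, with 17.2 ± 8.85 CPM in the combined accessory knockout and 4.48 ± 1.03 CPM in Suz12 KO, and of Rtl1, with 2.25 ± 0.877 CPM in the combined accessory knockout and 0.470 ± 0.278 CPM in Suz12 KO.

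Here 4 of 5 members were higher in the combined accessory knockout by the edgeR test, beside 20.8% of all tested IDs. The log2 fold change over Suz12 KO was 1.83 for Meg3 (SE 0.21, edgeR adjusted p = 7.84e-07), 1.45 for Rian (SE 0.13, edgeR adjusted p = 1.78e-08), 1.93 for Mirg (SE 0.33, edgeR adjusted p = 7.71e-05) and 2.26 for Rtl1 (SE 0.52, edgeR adjusted p = 0.00127). These 4 calls held under each of the 12 alternatives run. With scaling by library size only, the median of all IDs in this comparison was -0.13 on the log2 scale. Reads of Dlk1 per 100 reads of Rian, a ratio within a library that no scaling touches, were 0.854, 2.02 and 2.53 in the combined accessory knockout, against 3.18, 4.35 and 5.50 in Suz12 KO. They did not exceed 0.326 in WT.

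**Figure D3:**
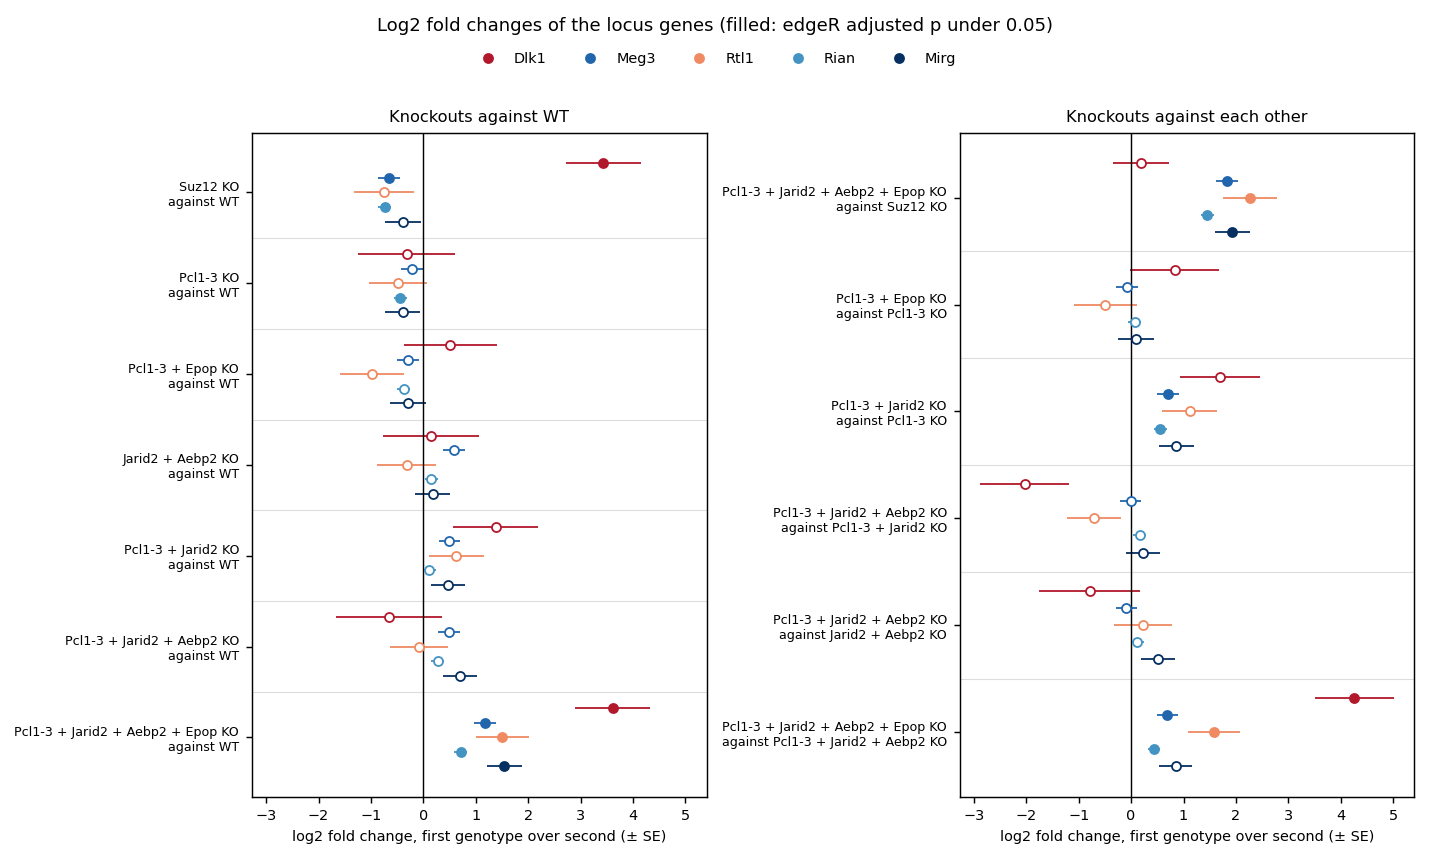
Log2 fold changes (points, with ± SE bars) of the 5 genes for each knockout against WT (left) and for knockouts against each other (right); filled points have an edgeR adjusted p under 0.05. In Suz12 KO against WT, Dlk1 stands at 3.43 while the other genes lie below 0, and in the combined accessory knockout all 5 points are filled and above 0.

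In Pcl1-3 KO, which lacks the 3 Polycomb-like proteins, the edgeR test called 1 of 5 members lower, beside 4.35% of all tested IDs. That gene was Rian, with 99.3, 112 and 87.0 CPM in Pcl1-3 KO and 148, 146 and 112 CPM in WT, where the highest Pcl1-3 KO library was just above the lowest WT library. Its log2 fold change was -0.44 (SE 0.12, edgeR adjusted p = 0.0288). The call was lost without Pcl1-3 KO replicate 1 (edgeR adjusted p = 0.0859) or replicate 3 (0.178) and without WT replicate 1 (0.147) or replicate 2 (0.113), in a range of adjusted p from 0.00809 to 0.178 over all alternatives, DESeq2 included. The log2 fold changes of the other 4 genes in Pcl1-3 KO lay between -0.49 for Rtl1 and -0.21 for Meg3. Dlk1 had 0, 2 and 13 reads in the 3 Pcl1-3 KO libraries, and a count of 0 in replicate 1 allows a level of up to 0.266 CPM, counting error only.

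In Pcl1-3 + Epop KO, edgeR called 0 of 5 members (7.61% of all tested IDs were called in either direction), 1 had an unadjusted p under 0.05, and DESeq2 called that 1. It was again Rian, with 108, 106 and 98.0 CPM in Pcl1-3 + Epop KO, all below 148, 146 and 112 CPM in WT, and a log2 fold change of -0.38 (SE 0.12, edgeR adjusted p = 0.0661). The adjusted p was 0.0349 by DESeq2, and 0.0232 by edgeR without WT replicate 3. Setting Pcl1-3 + Epop KO against Pcl1-3 KO, edgeR and DESeq2 called 0 of 5, none had an unadjusted p under 0.05, and only 0.00683% of all tested IDs were called. Meg3 averaged 14.8 ± 3.10 CPM in Pcl1-3 + Epop KO and 15.7 ± 3.11 CPM in Pcl1-3 KO (SD, n = 3 each), and Rian 104 ± 5.41 CPM in Pcl1-3 + Epop KO and 99.5 ± 12.6 CPM in Pcl1-3 KO. The libraries of these genotypes overlapped for every member.

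Outside the combined accessory knockout, Meg3 was above the WT libraries in the genotypes that lack JARID2, though not past the threshold. None of these genotypes lacks JARID2 alone. Meg3 had 23.1, 30.7 and 27.5 CPM in Jarid2 + Aebp2 KO, against 17.9, 17.7 and 18.9 CPM in WT, and a log2 fold change of 0.58 (SE 0.21, edgeR adjusted p = 0.113). In Pcl1-3 + Jarid2 KO it had 24.3, 19.7 and 32.9 CPM, with a log2 fold change over WT of 0.50 (SE 0.21, edgeR adjusted p = 0.107). In Pcl1-3 + Jarid2 + Aebp2 KO it had 22.9, 26.1 and 27.5 CPM, with a log2 fold change over WT of 0.49 (SE 0.21, edgeR adjusted p = 0.122). In none of these genotypes did a Meg3 library overlap WT. Comparisons with WT share its 3 libraries, so these values are not independent of each other.

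Against WT, edgeR called 0 of 5 members in Jarid2 + Aebp2 KO (4.39% of all tested IDs were called), 0 of 5 in Pcl1-3 + Jarid2 KO (17.2%) and 0 of 5 in Pcl1-3 + Jarid2 + Aebp2 KO (15.0%), and DESeq2 called 0 in each. An unadjusted p under 0.05 was found for Meg3 alone in Jarid2 + Aebp2 KO and in Pcl1-3 + Jarid2 KO, and for 3 genes, Meg3, Rian and Mirg, in Pcl1-3 + Jarid2 + Aebp2 KO. Mirg had 8.19, 10.4 and 10.04 CPM in Pcl1-3 + Jarid2 + Aebp2 KO, against 6.62, 6.74 and 4.37 CPM in WT, without overlap, and a log2 fold change of 0.70 (SE 0.33, edgeR adjusted p = 0.168). Dlk1 was not called in any of the 3 genotypes, with at most 19 reads in a library and a highest value of 1.26 CPM, in Pcl1-3 + Jarid2 KO. Fitted on only the genotypes compared, Meg3 was called higher than WT in each of them, with edgeR adjusted p of 0.0372 in Jarid2 + Aebp2 KO, 0.0401 in Pcl1-3 + Jarid2 KO and 0.0267 in Pcl1-3 + Jarid2 + Aebp2 KO, where the alternatives reached up to 0.317, 0.495 and 0.307. In Jarid2 + Aebp2 KO it was also called with no filter on low counts (edgeR adjusted p = 0.0316).

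In cells without the Polycomb-like proteins, 2 of the noncoding RNAs rose past the threshold when JARID2 was lost as well. Meg3 had 24.3, 19.7 and 32.9 CPM in Pcl1-3 + Jarid2 KO, against 12.5, 18.7 and 15.9 CPM in Pcl1-3 KO. Rian had 136, 141 and 161 CPM in Pcl1-3 + Jarid2 KO, against 99.3, 112 and 87.0 CPM in Pcl1-3 KO. For both, no library of the pair of genotypes overlapped. Mirg did not overlap either, with 6.69, 8.64 and 9.10 CPM in Pcl1-3 + Jarid2 KO, against 3.63, 6.52 and 3.35 CPM in Pcl1-3 KO. The edgeR test called 2 of 5 members higher, beside 3.71% of all tested IDs. The log2 fold change was 0.71 for Meg3 (SE 0.21, edgeR adjusted p = 0.0434) and 0.55 for Rian (SE 0.12, edgeR adjusted p = 0.00770). It was 0.87 for Mirg (edgeR adjusted p = 0.141), 1.69 for Dlk1 (0.225) and 1.12 for Rtl1 (0.245), none past the threshold. All 5 members had an unadjusted p under 0.05 in the edgeR test, and DESeq2 called 2. With no filter on low counts Mirg (edgeR adjusted p = 0.0254) and Dlk1 (0.0416) were called, and Mirg was also called without Pcl1-3 KO replicate 2 (0.0455). The call for Meg3 was lost on only the genotypes compared (edgeR adjusted p = 0.0803) and without Pcl1-3 KO replicate 1 (0.227) or 3 (0.114) or Pcl1-3 + Jarid2 KO replicate 1 (0.0663) or 3 (0.280), and that for Rian without replicate 3 of either genotype (0.0595 each); over all alternatives, DESeq2 included, the adjusted p ranged from 0.00558 to 0.28 for Meg3 and from 0.000747 to 0.0595 for Rian.

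Adding the loss of AEBP2 to that background changed no member past the threshold. Setting Pcl1-3 + Jarid2 + Aebp2 KO against Pcl1-3 + Jarid2 KO, edgeR and DESeq2 called 0 of 5 members, and edgeR called 0.901% of all tested IDs. Only Dlk1 had an unadjusted p under 0.05, with 0.143, 0.144 and 0.332 CPM in Pcl1-3 + Jarid2 + Aebp2 KO, against 0.288, 0.996 and 1.26 CPM in Pcl1-3 + Jarid2 KO (log2 fold change -2.03, SE 0.85, edgeR adjusted p = 0.442, and 0.0457 with no filter on low counts). These values rested on 2, 2 and 4 reads against 4, 12 and 19, and the libraries overlapped. Setting Pcl1-3 + Jarid2 + Aebp2 KO against Jarid2 + Aebp2 KO, which asks what loss of the Polycomb-like proteins adds, both tools called 0 of 5 members, none had an unadjusted p under 0.05, and edgeR called 13.7% of all tested IDs.

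Dlk1, Meg3, Rtl1 and Rian rose with the further loss of EPOP, which separates the combined accessory knockout from Pcl1-3 + Jarid2 + Aebp2 KO. Dlk1 had 1.80, 4.97 and 5.26 CPM in the combined accessory knockout, against 0.143, 0.144 and 0.332 CPM in Pcl1-3 + Jarid2 + Aebp2 KO. Meg3 had 28.5, 44.4 and 50.3 CPM in the combined accessory knockout, against 22.9, 26.1 and 27.5 CPM in Pcl1-3 + Jarid2 + Aebp2 KO. Rian had 210, 245 and 208 CPM in the combined accessory knockout, against 142, 162 and 186 CPM in Pcl1-3 + Jarid2 + Aebp2 KO. None of these genes overlapped between the genotypes, although the lowest Meg3 library of the combined accessory knockout lay only just above. Rtl1 did not overlap either, with 1.62, 1.89 and 3.25 CPM in the combined accessory knockout, against 0.926, 0.793 and 0.498 CPM in Pcl1-3 + Jarid2 + Aebp2 KO.

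The edgeR test called 4 of 5 members higher at this step, beside 5.79% of all tested IDs. The log2 fold change of Dlk1 was 4.26 (SE 0.75, edgeR adjusted p = 0.000592), and this call held under each of the 12 alternatives. Meg3 rose by 0.69 (SE 0.20, edgeR adjusted p = 0.0309), Rtl1 by 1.59 (SE 0.50, edgeR adjusted p = 0.0416) and Rian by 0.44 (SE 0.12, edgeR adjusted p = 0.0233) on the log2 scale. Mirg, at 0.85 (SE 0.32, edgeR adjusted p = 0.0910), was not past the threshold, and its libraries overlapped. It was called with no filter on low counts (edgeR adjusted p = 0.0146) and without combined accessory knockout replicate 1 (0.0117). On only the genotypes compared the edgeR adjusted p was 0.0702 for Meg3 and 0.113 for Rian, and the calls were also lost without single libraries: for Meg3 without Pcl1-3 + Jarid2 + Aebp2 KO replicate 1 (0.122) or 2 (0.0738) or combined accessory knockout replicate 2 (0.0898) or 3 (0.192), and for Rian without Pcl1-3 + Jarid2 + Aebp2 KO replicate 1 (0.133) or 2 (0.0680) or combined accessory knockout replicate 2 (0.0978). For Rtl1 the edgeR adjusted p was 0.0747, 0.0951 and 0.128 without Pcl1-3 + Jarid2 + Aebp2 KO replicates 1, 2 and 3, and 0.0583 and 0.216 without combined accessory knockout replicates 2 and 3. Over all alternatives, DESeq2 included, the adjusted p ranged from 0.00429 to 0.192 for Meg3, from 0.013 to 0.216 for Rtl1 and from 0.00568 to 0.133 for Rian.

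Whether EPOP loss acted differently with and without JARID2 and AEBP2 was tested as the difference of the log2 fold changes, a comparison added after the calls had been seen. EdgeR and DESeq2 called 0 of 5 members, and edgeR called 2.09% of all tested IDs. An unadjusted p under 0.05 was found for 4 members, a count that the adjusted share does not match. The difference was 3.43 for Dlk1 (SE 1.19, edgeR adjusted p = 0.162), 2.08 for Rtl1 (SE 0.79, edgeR adjusted p = 0.220) and 0.77 for Meg3 (SE 0.29, edgeR adjusted p = 0.217). Dlk1 was called with no filter on low counts (edgeR adjusted p = 0.00285) and without Pcl1-3 + Epop KO replicate 3 (0.0159), and Rtl1 without Pcl1-3 + Epop KO replicate 1 (0.0487). A second added test asked whether loss of JARID2 and AEBP2 acted differently with and without loss of the Polycomb-like proteins. EdgeR called 0 of 5 members and 7.36% of all tested IDs, 1 member had an unadjusted p under 0.05, and DESeq2 called 1. That gene was Rian, with a difference of 0.56 on the log2 scale (SE 0.17, edgeR adjusted p = 0.0520). The adjusted p was 0.0242 by DESeq2, and by edgeR 0.0254 without Pcl1-3 KO replicate 2, 0.0402 without Pcl1-3 + Jarid2 + Aebp2 KO replicate 1 and 0.0216 without WT replicate 3.

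**Figure D4:**
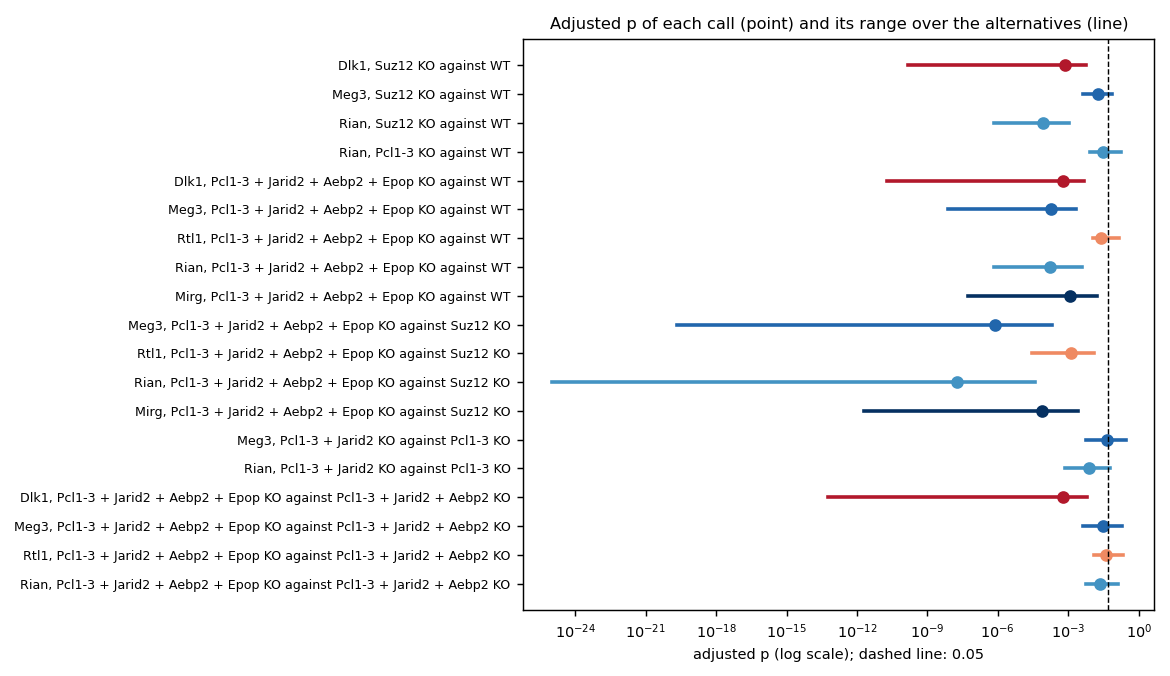
Adjusted p (log axis) of each called gene and comparison: the point is the value reported, the line spans the values over the alternatives, and the dashed line marks 0.05. The lines of Dlk1 stay left of the dashed line in its 3 calls, and those of 8 of the 19 calls cross it.

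Ordered by mean level, Dlk1 was highest in the combined accessory knockout, then Suz12 KO, Pcl1-3 + Jarid2 KO, Pcl1-3 + Epop KO, Jarid2 + Aebp2 KO, WT, Pcl1-3 + Jarid2 + Aebp2 KO and Pcl1-3 KO, and only Suz12 KO and Pcl1-3 + Jarid2 KO were neighbours whose libraries did not overlap. Meg3 was highest in the combined accessory knockout, then Jarid2 + Aebp2 KO, followed by Pcl1-3 + Jarid2 KO and, below it, Pcl1-3 + Jarid2 + Aebp2 KO, WT, Pcl1-3 KO, Pcl1-3 + Epop KO and Suz12 KO, and its libraries separated only Pcl1-3 + Jarid2 + Aebp2 KO from WT. Rian followed a like order, from the combined accessory knockout through Pcl1-3 + Jarid2 + Aebp2 KO, Jarid2 + Aebp2 KO, Pcl1-3 + Jarid2 KO, WT, Pcl1-3 + Epop KO and Pcl1-3 KO to Suz12 KO. Among its neighbours, the combined accessory knockout did not overlap Pcl1-3 + Jarid2 + Aebp2 KO, nor did WT overlap Pcl1-3 + Epop KO. Mirg had the order of Rian except that Pcl1-3 + Jarid2 KO stood above Jarid2 + Aebp2 KO, and no neighbours were separated. Rtl1 was highest in the combined accessory knockout, then Pcl1-3 + Jarid2 KO and WT, and lowest in Pcl1-3 + Epop KO, with all neighbours overlapping. By mean level, Meg3, Rian and Mirg had the same 4 JARID2-deficient genotypes above WT and the same 3 genotypes below it. Of those above WT, all but Pcl1-3 + Jarid2 KO also lack AEBP2. Rian and Mirg libraries overlapped WT in Jarid2 + Aebp2 KO and in Pcl1-3 + Jarid2 KO. Those of Rian also overlapped WT in Pcl1-3 + Jarid2 + Aebp2 KO.

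The noncoding members varied together across libraries, and Dlk1 varied apart from them. Of the 14649 other tested IDs, the one whose log2 CPM over the 24 libraries was most like that of Meg3 was Rian (Pearson r = 0.913, a description over libraries that share genotypes), and Mirg was the fifth (r = 0.870). Rtl1 was at rank 302 (r = 0.690) and Dlk1 at rank 5433 (r = 0.158). The 5 IDs most like Dlk1, with r between 0.907 and 0.937, are not paired with symbols here, and Mirg, the nearest member, was at rank 4246 (r = 0.297). Reads of Meg3 per 100 reads of Rian stayed between 12.1 and 24.2 in all 24 libraries, and the highest value came from combined accessory knockout replicate 3. The same library had 12.7 reads of Mirg per 100 reads of Rian, where the other libraries had 3.07 to 6.68. From the start of Meg3 to the end of Mirg, 208 kb, the annotation used here lists 57 microRNA hairpins. These were not measured as mature microRNAs by these libraries.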

How the data were processed

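RNA was counted in 24 libraries (8 genotypes, 3 each); the other 63 of 87 samples are chromatin immunoprecipitations, not analysed here except through 3 series-wide peak lists. For each library the authors deposited raw read counts by Ensembl ID. The submitters' processing notes name STAR and HTSeq for RNA, Trimmomatic and Bowtie2 for immunoprecipitations, and mm10 for both; per the labels, total RNA went into a TruSeq kit. Not given in the sources used here were the strand setting, peak caller, threshold and pooling. The deposited peak lists' other values are positions in base pairs.

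Counts were tested with edgeR 4.0.16 in R 4.3.3 (filterByExpr, TMM, robust quasi-likelihood fit over 24 libraries, 1 mean per genotype), in 13 planned and 2 added comparisons. The filter asked for 0.742 CPM in at least 3 libraries. Dlk1 reached it in 9, of which 6 were Suz12 KO or combined accessory knockout, and Rtl1 in 13, so Dlk1 passed mainly through genotypes where it is high. The SE is the log2 fold change over the square root of F. DESeq2 1.42.0 was an alternative. Scripts were tested on simulated data. Intervals and floors (3 counts) cover counting error only. Gene positions and promoters came from RefSeq GRCm38.p6, which shares its coordinates with mm10. The text names all 5 members in every comparison, neighbouring genes for peaks only, and for Meg3 and Dlk1 the 5 IDs of most similar log2 CPM (prior count 2). Lists of targeted, imprinted, methylation and cell type marker genes could not be matched to IDs and were not used. Members and lists were chosen with earlier results of these data known.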

Additional observations from a re-analysis of the deposited data

How the results depend on the processing

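Alternatives were RLE size factors, library size only (chosen after seeing the data), no filter on low counts, only the genotypes compared, DESeq2, a replicate block and leaving out each library. No called log2 fold change reversed its sign. Counts of the 5 members called stayed within 1.5 times the reported count except as follows. With no filter, 1 was called in Jarid2 + Aebp2 KO against WT (reported 0), 4 in Pcl1-3 + Jarid2 KO against Pcl1-3 KO (2), 1 in Pcl1-3 + Jarid2 + Aebp2 KO against Pcl1-3 + Jarid2 KO (0) and 1 for EPOP loss with and without JARID2 and AEBP2 (0). On only the genotypes compared, 1 was called against WT in Jarid2 + Aebp2 KO, in Pcl1-3 + Jarid2 KO and in Pcl1-3 + Jarid2 + Aebp2 KO (0 each), 1 in Pcl1-3 + Jarid2 KO against Pcl1-3 KO (2), and 2 in the combined accessory knockout against Pcl1-3 + Jarid2 + Aebp2 KO (4). DESeq2 called 1 in Pcl1-3 + Epop KO against WT and 1 for JARID2 and AEBP2 loss with and without Pcl1-3 loss (0 each). The cause was not tested. Counts under the alternatives, here and below, come without the share of all IDs called under the same setting. They only describe the members.

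Leaving out 1 library at a time gave 2 to 3 called members in Suz12 KO against WT, 0 to 1 in Pcl1-3 KO and in Pcl1-3 + Epop KO against WT, 4 to 5 in the combined accessory knockout against WT, 0 to 3 in Pcl1-3 + Jarid2 KO against Pcl1-3 KO, 1 to 5 in the combined accessory knockout against Pcl1-3 + Jarid2 + Aebp2 KO, and 0 to 1 for each difference of differences; the other comparisons did not move.

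With the replicate number as a block, 1 member was called in Pcl1-3 + Epop KO against WT (Rian, edgeR adjusted p = 0.0244), 1 in Jarid2 + Aebp2 KO against WT (Meg3, 0.0458), 4 in Pcl1-3 + Jarid2 KO against Pcl1-3 KO (Dlk1 at 0.0259 and Mirg at 0.0455 added) and 1 in each difference of differences (Dlk1, 0.0213, for EPOP loss; Rian, 0.0160, for JARID2 and AEBP2 loss). The block also added Mirg (0.0339) in the combined accessory knockout against Pcl1-3 + Jarid2 + Aebp2 KO. Same-numbered libraries' deviations correlated at 0.0315 to 0.710 over 84 pairs of genotypes, 75 of them over 0.1, and all 24 libraries correlated best with their own number. The median was 0.260 for pairs of the same number and -0.131 for pairs of different number, so libraries of 1 number share something. The labels do not say what, and not every pair was over 0.1, so the reported values have no block. Depth limits Dlk1 and Rtl1, which had under 20 reads in most libraries.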
